A study of Mus musculus with 6 samples.

Results

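The genes described here are 40 DNA replication and S phase genes of the mouse. They were chosen by name for their roles in origin licensing, DNA unwinding, DNA synthesis and E2F control. Earlier results of these data were known when the choice was made. All 40 are among the 55367 genes listed in the table, and all 40 are among the 16746 genes tested. By role they are 3 origin recognition genes (Orc1, Orc2, Orc6), 3 loading genes (Cdc6, Cdt1, Gmnn), the 6 genes Mcm2 to Mcm7 of the MCM helicase, Mcm10, 5 partners of that helicase (Cdc45, Gins1 to Gins4), 8 polymerase and primase genes (Pola1, Pola2, Prim1, Prim2, Pold1, Pold2, Pole, Pole2), the clamp Pcna with its 5 loader genes (Rfc1 to Rfc5), 3 genes of the single-strand binding protein RPA (Rpa1 to Rpa3), 2 Okazaki fragment genes (Fen1, Lig1) and 3 E2F transcription factors (E2f1, E2f2, E2f8).

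RNA-seq was made from leukemia stem cells (LSCs) sorted from the bone marrow of mice with MLL-AF9 induced acute myeloid leukemia, in 3 WT and 3 Piezo1cKO libraries (labelled Piezo1cko). Piezo1cKO donors were Mx1-cre; Piezo1 fl/fl mice and WT donors were Piezo1 fl/fl littermates without Cre, and donors of both groups received pIpC at 8 to 10 weeks of age. In both groups Lin- bone marrow cells carried the MLL-AF9-YFP retrovirus and grew in irradiated recipients. The comparison asks how loss of PIEZO1, a mechanosensitive ion channel of the plasma membrane, changed the transcripts of the leukemia cells. Mx1-cre is switched on by interferon and acts in blood cells at large and in other tissues, and not in leukemia cells alone. The labels do not say whether the libraries came from separate mice, nor from which round of transplantation. The study's supplement defines LSCs as Lin-Sca-1-c-Kit+CD16/32hiCD34+YFP+ cells. The p-values therefore measure the spread between libraries, which may be technical.

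DNA replication starts when the origin recognition complex, with Cdc6 and Cdt1, loads the ring of Mcm2 to Mcm7 on DNA, a step called licensing. In S phase Cdc45 and the GINS complex join the ring to form the active CMG helicase, primase and the polymerases copy both strands, and PCNA holds the polymerases on their template. Many of these genes are transcribed under E2F factors, which in resting cells are held back by the pocket proteins of the retinoblastoma family, and proliferating leukemic progenitors express the whole set.

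Letters of the E2F type are a feature that the choice of genes did not use. They are shown because E2F factors, known to bind such letters, are themselves in the set. Stretches are given for 6 of the 14 genes with a match, and these 6 were not picked by a fixed rule. Among them are E2f2, Pola1 and Mcm5, the 3 genes with the largest changes of the 40. RefSeq promoter windows (GRCm38.p6, 250 bases before to 50 bases after a transcript start) were at hand for 32 of the 40 genes. Each stretch is written 5′ to 3′ on the strand of its gene, and capitals mark TTTCCCGC, TTTCGCGC, TTTGCCGC or TTTGGCGC on either strand, where neighbouring matches may overlap.
Mcm5, chr8:75109316-75109407, plus strand: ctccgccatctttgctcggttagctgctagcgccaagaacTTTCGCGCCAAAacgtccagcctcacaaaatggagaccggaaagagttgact
Mcm6, chr1:128359706-128359855, minus strand: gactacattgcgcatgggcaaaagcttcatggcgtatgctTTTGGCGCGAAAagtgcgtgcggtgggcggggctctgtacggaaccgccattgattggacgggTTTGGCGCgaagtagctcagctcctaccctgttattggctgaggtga
Pola1, chrX:93632246-93632333, minus strand: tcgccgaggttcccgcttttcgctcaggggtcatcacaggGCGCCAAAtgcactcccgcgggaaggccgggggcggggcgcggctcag
Cdc6, chr11:98908002-98908031, plus strand: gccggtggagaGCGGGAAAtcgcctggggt
Orc1, chr4:108579416-108579445, plus strand: ttcggttagtgGCGCGAAAagttttctcct
E2f2, chr4:136172293-136172322, plus strand: ccgaatttggcggcatatagTTTGGCGCta
In Mcm5 a pair of overlapping matches begins 153 and 149 bases before the RefSeq start, and in Mcm6 matches begin 110, 106 and 47 bases before it. The match begins 138 bases before the start in Pola1, 138 bases before it in Cdc6 and 27 bases before it in Orc1, and 39 bases after it in E2f2. At least 1 match was found in 14 of the 32 genes with a window (43.8%), against 704 of all 27025 genes with a window (2.61%) and 508 of the 11029 with a window among the genes tested (4.61%). By GENCODE, 23 of the 30 bases shown for Orc1 lie in an exon of the gene, and the other stretches lie outside the exons of theirs. These matches are a description of the letters and not of binding.

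Piezo1, the targeted gene, was lower in every Piezo1cKO library. The deposited value was 6.30 ± 0.04 (SD, n = 3) in WT and 6.01 ± 0.06 in Piezo1cKO libraries, a log2 fold change of -0.29 (limma, adjusted p = 5.8e-06). In reads this was 101 ± 7.94 against 46.3 ± 10.0, or 45.9% of WT. Counting over the whole gene does not separate the deleted exons from those that remain, and 24.6% of the Piezo1 exon bases are shared with Ctu2 on the opposite strand in these libraries without strand information. Ctu2 fell by 0.46 (limma, adjusted p = 9.53e-09).

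Deposited values are on a log2 scale that pulls each library towards the mean of its gene, so differences in them are smaller than in the reads, and low genes lose the most. The transform could be undone to whole reads, with 94.9% of values within 0.1 of a whole number among genes with a mean of 1 to 1000 reads. That share was not measured for genes with higher means, such as Pcna and the MCM genes. Levels are given as normalized reads, the recovered reads divided by the size factor of the library. Levels per kb divide these by all bases in any annotated exon of the gene, so their ranks depend on the annotation. The libraries held 14112071 to 15483547 reads on genes, and the totals of the groups overlapped. Unless recovered reads are named, tests were made on the deposited values with limma over all 16746 genes, Piezo1cKO minus WT, and a gene was called higher or lower at an adjusted p under 0.05. A differentially expressed gene (DEG) had in addition an absolute log2 fold change over 1.

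The replication genes were lower more often than higher in Piezo1cKO LSCs, by small amounts. Of the 40 genes 21 fell, 7 rose and 12 were not called. Of all genes tested 63.0% were called, with 31.4% lower and 31.6% higher. The share called among the replication genes was 70.0%, close to the 69.5% among all tested genes with a mean of at least 50 reads, which all 40 replication genes reach. By direction the shares were 52.5% lower and 17.5% higher, against 35.8% and 33.7% among the genes with at least 50 reads. The median log2 fold change over the 40 genes was -0.086, and 0.0006 over all genes tested.

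In 24 genes every Piezo1cKO library lay below every WT library and in 5 genes every one lay above, while the groups overlapped in 11. Over all genes tested the groups did not overlap in 66.6%, with Piezo1cKO lower in 33.1% and higher in 33.5%. E2f2 was the only one of the 40 past both DEG thresholds, on the deposited values and on the recovered reads alike. Of all genes tested 0.818% passed both on the deposited values, 0.561% as lower, and 24.9% passed both on the recovered reads, 12.2% as lower. Where the mean was 50 reads or more, 1.34% passed both on the deposited values and 8.82% on the recovered reads. The same 28 genes were called, in the same directions, when the recovered reads were fitted with limma-voom, where 62.9% of all genes were called (31.4% lower and 31.6% higher). Their log2 fold changes were then larger by a median factor of 1.49 (1.36 to 3.05), and the median over the 40 genes was -0.14.

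**Figure D1:**
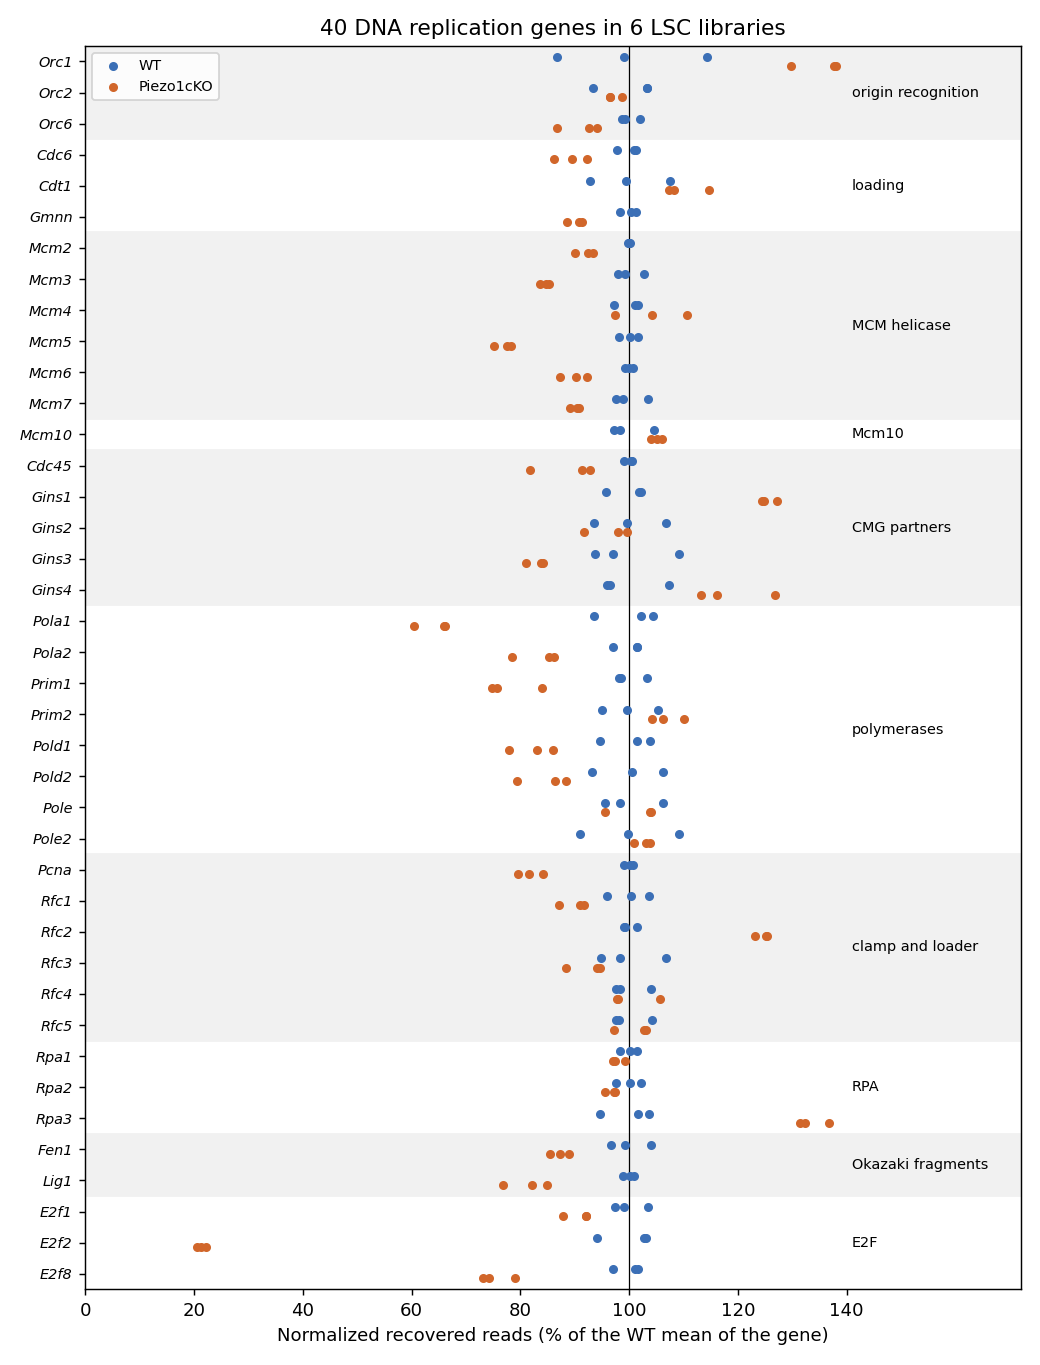
Normalized recovered reads of each of the 40 genes in each library, as a percent of the mean of the 3 WT libraries of that gene (x axis), by role (bands); points are libraries. Piezo1cKO means stand at 21.4% of WT for E2f2 and 64.2% for Pola1, and for the other genes between 75.5% (E2f8) and 135% (Orc1).

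The summed level of the 40 genes was 93902, 94463 and 94215 normalized reads in the WT libraries and 87220, 86918 and 87063 in the Piezo1cKO libraries. The Piezo1cKO sum was 92.4% of WT, and the libraries of each group lay closer to each other than to any of the other group. The 6 MCM genes make up the largest share of this sum. Their total fell from 36976 ± 155 (SD, n = 3) to 32952 ± 176 normalized reads, 89.1% of WT, while the 5 helicase partners summed to 4302 ± 82.8 in WT and 4303 ± 101 in Piezo1cKO libraries. The clamp and its loader were at 102.7% and RPA at 100.4% of WT. Sums were not tested. In bulk samples fewer cells in S phase and less of these transcripts per cell cannot be told apart.

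**Figure D2:**
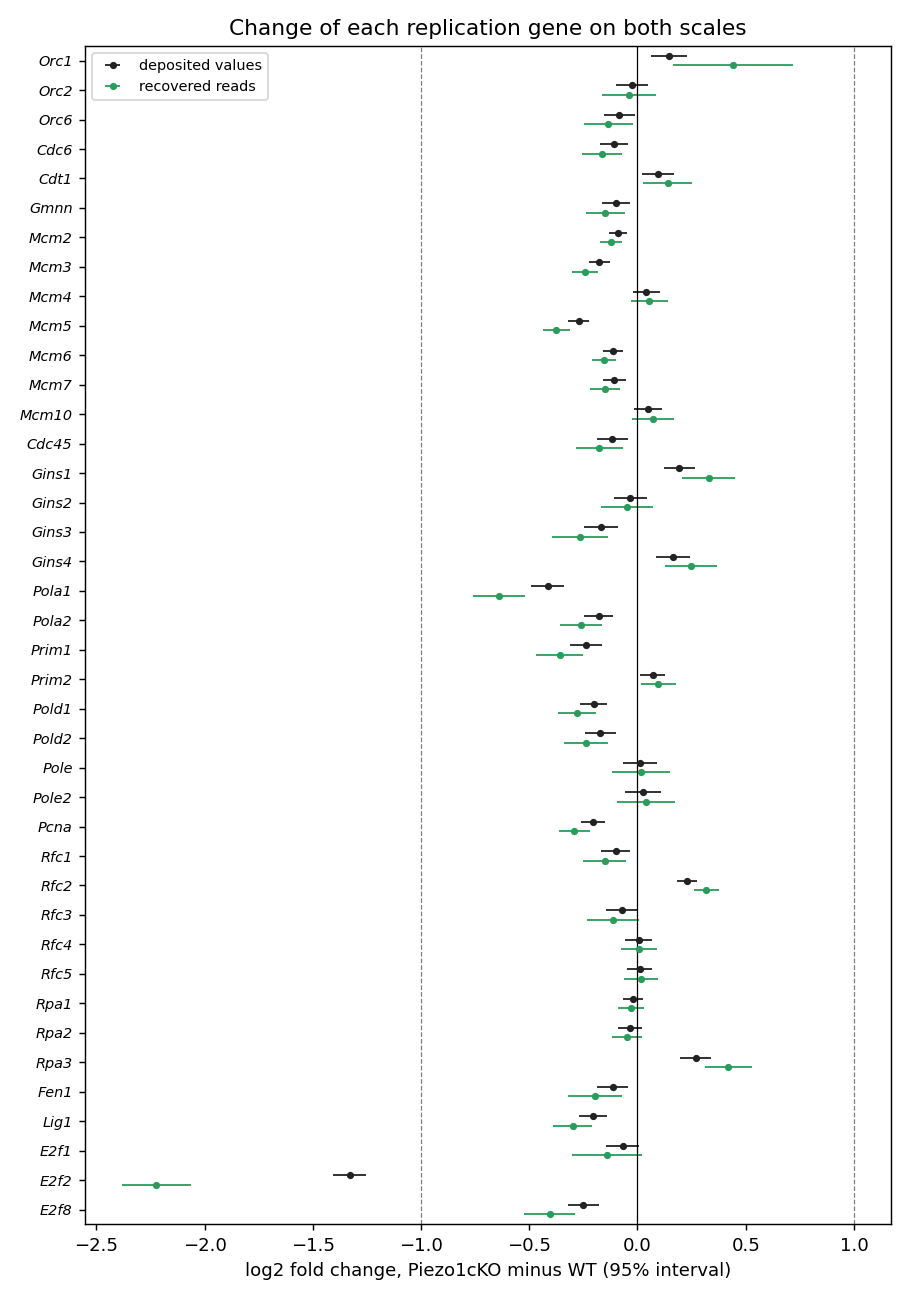
Log2 fold change of each gene, Piezo1cKO minus WT (x axis), from the deposited values (black) and from recovered reads (green), with 95% intervals; dashed lines mark 1 and -1. E2f2 lies at -1.33 and -2.22, and the other 39 genes lie between -1 and 1 on both scales.

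The 3 origin recognition genes went in different directions. Orc1, the subunit of the complex whose level varies over the cell cycle in many cells, had the lowest level per kb of exon of the 40 genes in WT, 26.4 normalized reads per kb. It had 79.6, 90.8 and 105 normalized reads in WT and 126, 127 and 119 in Piezo1cKO libraries. Every Piezo1cKO library was above every WT library, and the deposited log2 fold change was 0.14 with an SE of 0.040 (limma, adjusted p = 0.0041). On recovered reads the log2 fold change of Orc1 was 0.44, the largest ratio between the scales among the genes called. Orc6, which with the rest of the complex is needed for loading, was lower at -0.083 (limma, adjusted p = 0.038). Vps35, on the opposite strand, shares 6.93% of the Orc6 exon bases, had a mean of 2410 reads and fell by 0.14 (limma, adjusted p = 0.00079). Orc2, a core subunit, was not called at -0.024, with a 95% interval of -0.098 to 0.051. Nif3l1, on the opposite strand, shares 29.8% of the Orc2 exon bases, had a mean of 1352 reads and was not called (limma, adjusted p = 0.557). Reads of the shared bases cannot be assigned to a strand. The Orc6 call was lost without WT replicate 1, 2 or 3 or without Piezo1cKO replicate 2 or 3, with log2 fold changes of -0.087, -0.075, -0.089, -0.062 and -0.091 in turn and adjusted p of 0.0555 to 0.148 by limma. Counting other filters and scalings, it was lost in 9 of 14 alternative settings. Under quantile normalization Orc6 was at -0.050 (limma, adjusted p = 0.203).

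Of the loading genes Cdc6 and Gmnn fell and Cdt1 rose. Cdc6, which recruits the MCM ring to origins, had 1311, 1356 and 1352 normalized reads in WT and 1154, 1237 and 1200 in Piezo1cKO libraries. All 3 Piezo1cKO libraries were lower than the lowest WT library, at a log2 fold change of -0.11 with an SE of 0.031 (limma, adjusted p = 0.0046). Gmnn encodes geminin, the inhibitor of Cdt1 that prevents a second round of licensing, and was at 90.2% of WT reads with a log2 fold change of -0.098 (limma, adjusted p = 0.0085). Cdt1, the loader that geminin inhibits, was at 110.2% of WT reads with a log2 fold change of 0.095 (limma, adjusted p = 0.029), and its groups overlapped. The Cdt1 call was lost without WT replicate 1 or 2 or Piezo1cKO replicate 2 or 3, with log2 fold changes of 0.093, 0.060, 0.10 and 0.075 and adjusted p of 0.0565 to 0.178 by limma. Cdt1 and Piezo1 lie head to head on chromosome 8, with 16.7 kb between the Cdt1 start and the start of Piezo1 on the opposite strand.

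Of the 6 helicase genes Mcm2, Mcm3, Mcm5, Mcm6 and Mcm7 fell, and Mcm4 was not called. Mcm5 changed most, from 5554, 5756 and 5672 normalized reads in WT to 4259, 4395 and 4437 in Piezo1cKO libraries. The groups were far apart against their spread, at 77.1% of WT and a deposited log2 fold change of -0.27 with an SE of 0.023 (limma, adjusted p = 1.1e-08). Mcm3 was at 84.5% of WT with a log2 fold change of -0.18, Mcm6 at 89.9% with -0.11, Mcm7 at 90.1% with -0.11 and Mcm2 at 92.0% with -0.089. The adjusted p of these 4 ran from 2.41e-06 to 0.0012 by limma, and in all 5 genes that fell every Piezo1cKO library was below every WT library.

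Mcm4 had 3893, 3869 and 3723 normalized reads in WT and 4235, 3732 and 3992 in Piezo1cKO libraries. The groups overlapped, and the log2 fold change was 0.041 with a 95% interval of -0.022 to 0.10 (limma, adjusted p = 0.245). Without Piezo1cKO replicate 2, the lowest of its group, it was 0.074 (limma, adjusted p = 0.0477). The products of the 6 genes work in equal numbers in the ring, so levels per kb of exon are of interest side by side. In WT libraries Mcm6 had the highest level of the 6, 1775 ± 12.2 (SD, n = 3) normalized reads per kb, and Mcm7 the lowest, 842 ± 25.7. This order rests on the annotated exon lengths and not on measured transcript lengths. Mcm2 had the most reads of the 6, a mean of 9564 normalized reads in WT, but has 6.96 kb of annotated exon. Mcm5 stood at 1418 ± 25.5 in WT and 1093 ± 23.3 per kb in Piezo1cKO libraries, and Mcm4 at 1067 ± 25.6 and 1111 ± 70.0 per kb. The ratio of Mcm5 to Mcm4 per kb was 1.33 ± 0.04 (SD, n = 3) in WT and 0.987 ± 0.078 in Piezo1cKO libraries. Mcm5 was thus above Mcm4 in all WT libraries, and above it in 1 of 3 Piezo1cKO libraries.

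**Figure D3:**
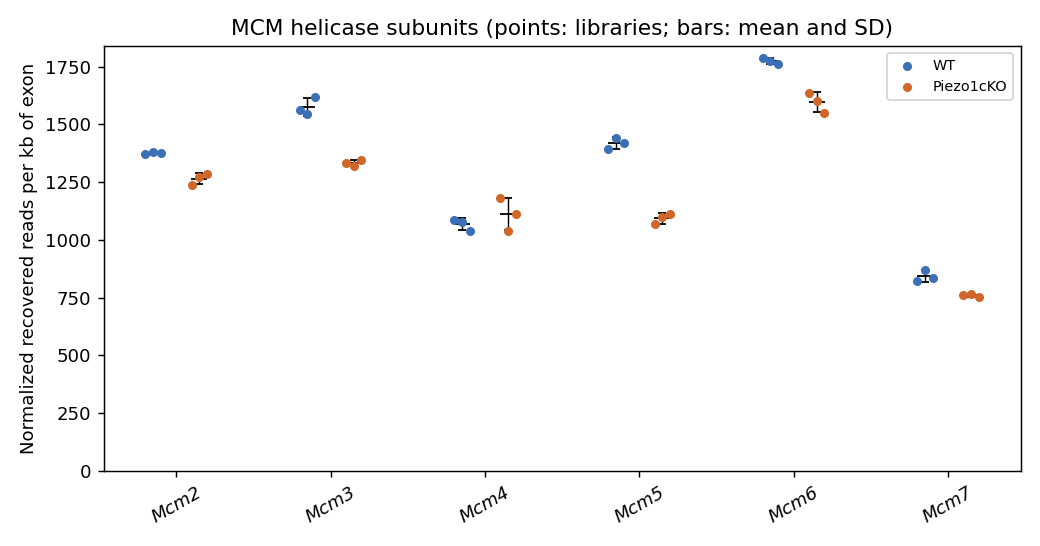
Normalized recovered reads per kb of exon (y axis, from 0) of the 6 MCM helicase genes; points are libraries, black bars the mean and SD of 3 libraries. Mcm2, Mcm3, Mcm5, Mcm6 and Mcm7 are lower in all Piezo1cKO libraries, and Mcm4 overlaps.

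Mcm10, which acts when the helicase is switched on, was not called. It had 1051, 1064 and 1130 normalized reads in WT and 1125, 1137 and 1148 in Piezo1cKO libraries. One WT library reached the Piezo1cKO range, and the log2 fold change was 0.048 with a 95% interval of -0.018 to 0.11 (limma, adjusted p = 0.193).

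The partners of the MCM ring split. Gins1 and Gins4 rose, Gins3 and Cdc45 fell and Gins2 was not called, although the 4 GINS proteins form 1 complex. Gins1 had 460, 458 and 431 normalized reads in WT and 561, 572 and 560 in Piezo1cKO libraries. No Piezo1cKO library came near the WT range, with a log2 fold change of 0.19 and an SE of 0.034 (limma, adjusted p = 8.87e-05). Gins4 rose by 0.16 (limma, adjusted p = 0.00091) and was at 118.7% of WT reads. Gins3 fell by 0.17 (limma, adjusted p = 0.00084) and was at 83.0%. Gins2 had a log2 fold change of -0.033 with a 95% interval of -0.11 to 0.044, and 67.3% of its exon bases are shared with Gse1 on the opposite strand, which fell by 0.39 (limma, adjusted p = 1.04e-07). Cdc45, which joins the ring together with GINS, fell by 0.12 (limma, adjusted p = 0.0068). Without Piezo1cKO replicate 3, its lowest library, Cdc45 was at -0.079 (limma, adjusted p = 0.0557).

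Of the 8 polymerase and primase genes 5 fell, Prim2 rose, and Pole and Pole2 were not called. Pola1, the catalytic subunit of polymerase alpha, had the largest change among them and the second largest of the 40 genes. It had 1175, 1053 and 1150 normalized reads in WT and 680, 743 and 745 in Piezo1cKO libraries. Each Piezo1cKO library was well below the lowest WT library, at 64.2% of WT and a log2 fold change of -0.41 with an SE of 0.036 (limma, adjusted p = 1.55e-08). Pola1 lies on the X chromosome, and all 6 libraries had at most 1 read of Xist and reads of Y-linked genes.

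Prim1, the primase that makes the RNA primer, had 1321, 1257 and 1254 normalized reads in WT and 1072, 967 and 954 in Piezo1cKO libraries. It was lower in all Piezo1cKO libraries at a log2 fold change of -0.24 with an SE of 0.034 (limma, adjusted p = 9.94e-06). Pola2, the second subunit of polymerase alpha, had 1449, 1515 and 1514 normalized reads in WT against 1172, 1273 and 1287 in Piezo1cKO libraries, at -0.18 (limma, adjusted p = 0.000107). Prim2, the large primase subunit and partner of these 3, was at 106.8% of WT with overlapping groups and a log2 fold change of 0.069 (limma, adjusted p = 0.039). That call was lost without WT replicate 2 or 3 or Piezo1cKO replicate 1 or 2, with log2 fold changes of 0.043, 0.068, 0.054 and 0.073 and adjusted p of 0.0853 to 0.22 by limma.

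Pold1, the catalytic subunit of polymerase delta, which extends the lagging strand, had 4484, 4805 and 4920 normalized reads in WT and 3691, 3933 and 4075 in Piezo1cKO libraries. The groups did not overlap, with a log2 fold change of -0.20 and an SE of 0.030 (limma, adjusted p = 1.26e-05). Pold2, its accessory subunit and the second highest of the 40 genes per kb in WT (1902 ± 126 normalized reads per kb), fell by 0.17 (limma, adjusted p = 0.0003). Pole and Pole2 encode the catalytic and an accessory subunit of polymerase epsilon, the leading strand enzyme. Their log2 fold changes were 0.010 with a 95% interval of -0.067 to 0.088 and 0.025 with an interval of -0.057 to 0.11, and their groups overlapped. A fall of the size of Pold1 lies outside both intervals.

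Pcna fell and its loader genes were mixed. Pcna, the sliding clamp, had 3126, 3076 and 3110 normalized reads in WT and 2614, 2530 and 2470 in Piezo1cKO libraries. The WT libraries were close together (SD 25.7 reads) and Piezo1cKO libraries were all lower, at 81.8% of WT and a log2 fold change of -0.21 with an SE of 0.026 (limma, adjusted p = 1.87e-06). The processed copy Pcna-ps2 had a mean of 14.5 counted reads, and reads that map to both were not measured.

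Rfc2, a small subunit of the loader that opens the clamp, was the opposite case. It had 4590, 4702 and 4600 normalized reads in WT and 5802, 5797 and 5704 in Piezo1cKO libraries, all above WT, at a log2 fold change of 0.23 with an SE of 0.022 (limma, adjusted p = 5.71e-08). Lat2, on the opposite strand, shares 15.1% of the Rfc2 exon bases and rose by 0.60 (limma, adjusted p = 1.31e-13), and reads of the shared bases cannot be assigned to a strand. Rfc1, the large subunit, fell by 0.10 (limma, adjusted p = 0.010). Without WT replicate 2 Rfc1 was at -0.083 (limma, adjusted p = 0.0539), and without Piezo1cKO replicate 3 at -0.086 (limma, adjusted p = 0.0536). Rfc3, Rfc4 and Rfc5 were not called, at -0.071 (95% interval -0.15 to 0.0041), 0.0054 (-0.056 to 0.067) and 0.011 (-0.047 to 0.069). Rfc4 had the highest level per kb of the 40 genes in WT, 2010 ± 71.6 normalized reads per kb.

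Of the RPA genes, whose products coat single-stranded DNA, only Rpa3 was called. Rpa3, the smallest subunit, had 673, 724 and 738 normalized reads in WT and 936, 943 and 974 in Piezo1cKO libraries. The lowest Piezo1cKO library was above the highest WT library, with a log2 fold change of 0.27 and an SE of 0.034 (limma, adjusted p = 1.63e-06). It was the largest rise among the 40 genes on the deposited scale. Rpa1 and Rpa2, the larger subunits, had log2 fold changes of -0.022 (95% interval -0.069 to 0.026) and -0.034 (-0.088 to 0.020).

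Both Okazaki fragment genes fell. Lig1, the ligase that joins the fragments, had 1834, 1858 and 1871 normalized reads in WT and 1424, 1574 and 1523 in Piezo1cKO libraries. The WT libraries were close together and the Piezo1cKO libraries all below them, at 81.3% of WT and a log2 fold change of -0.21 with an SE of 0.031 (limma, adjusted p = 1.32e-05). Fen1, the nuclease that trims the flap before ligation, was at 87.3% of WT and -0.11 (limma, adjusted p = 0.0077). The antisense gene Gm10143 shares 78.8% of the Fen1 exon bases, had a mean of 57.7 reads and was not called. Tmem258, on the opposite strand, shares 5.37%, had a mean of 1278 reads and rose by 0.24 (limma, adjusted p = 2.3e-06). Reads of the shared bases cannot be assigned to a strand.

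E2f2, which with E2f1 and E2f3 forms the activator class of E2F factors, had the largest change of the 40 genes. It had 966, 1056 and 1060 normalized reads in WT and 229, 219 and 211 in Piezo1cKO libraries. The Piezo1cKO libraries were close together and 4.68-fold lower on average, 220 ± 9.08 against 1027 ± 52.9 (SD, n = 3). The log2 fold change was -1.33 with an SE of 0.037 on the deposited values (limma, adjusted p = 6.16e-16) and -2.22 with an SE of 0.075 on recovered reads. E2f8, an atypical E2F that represses transcription, had 755, 751 and 721 normalized reads in WT and 587, 551 and 543 in Piezo1cKO libraries. All 3 were below WT, at -0.25 with an SE of 0.034 (limma, adjusted p = 4.63e-06). E2f1 had 272, 267 and 284 against 253, 252 and 241 normalized reads. Its groups did not overlap, but the log2 fold change of -0.069, with a 95% interval of -0.14 to 0.0068, did not pass (limma, adjusted p = 0.104).

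The other E2F genes are in a wider list of replication genes, and E2f3, E2f5 and E2f7 are named here after their values were seen. Of E2f1 to E2f8, 6 were lower, none higher, and E2f1 and E2f3 were not called. In all 8 every Piezo1cKO library lay below every WT library. Of all genes tested 31.4% were called lower and 31.6% higher, and in 33.1% every Piezo1cKO library lay below every WT library. E2f4, a factor that works mainly as a repressor with pocket proteins, had 1630, 1659 and 1698 normalized reads in WT and 1124, 1184 and 1100 in Piezo1cKO libraries, at -0.37 (limma, adjusted p = 6.27e-09). E2f6, a repressor that acts without pocket proteins, had 159, 181 and 163 against 73.1, 97.5 and 71.2, at -0.37 (limma, adjusted p = 5.92e-07).

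E2f5, close to E2f4 in sequence and role, had few reads. It had 46.6, 39.4 and 45.2 normalized reads in WT and 4.18, 2.92 and 5.09 in Piezo1cKO libraries, 9.30% of WT, at -0.28 on the deposited scale (limma, adjusted p = 8.02e-08). E2f5 passed both DEG thresholds only on recovered reads, as did E2f6. E2f7, the partner of E2f8, was at 71.6% of WT and -0.20 (limma, adjusted p = 0.00033), and E2f3 at 87.7% and -0.074 (limma, adjusted p = 0.0885). Among their partners, also named after their values were seen, Tfdp1, which binds DNA together with E2F proteins, fell by 0.23 (limma, adjusted p = 1.4e-06). The pocket protein genes Rbl1 and Rb1 fell by 0.28 and 0.098 (limma, adjusted p = 7.2e-07 and 0.027), and Rbl2 was at 0.039 (limma, adjusted p = 0.364).

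**Figure D4:**
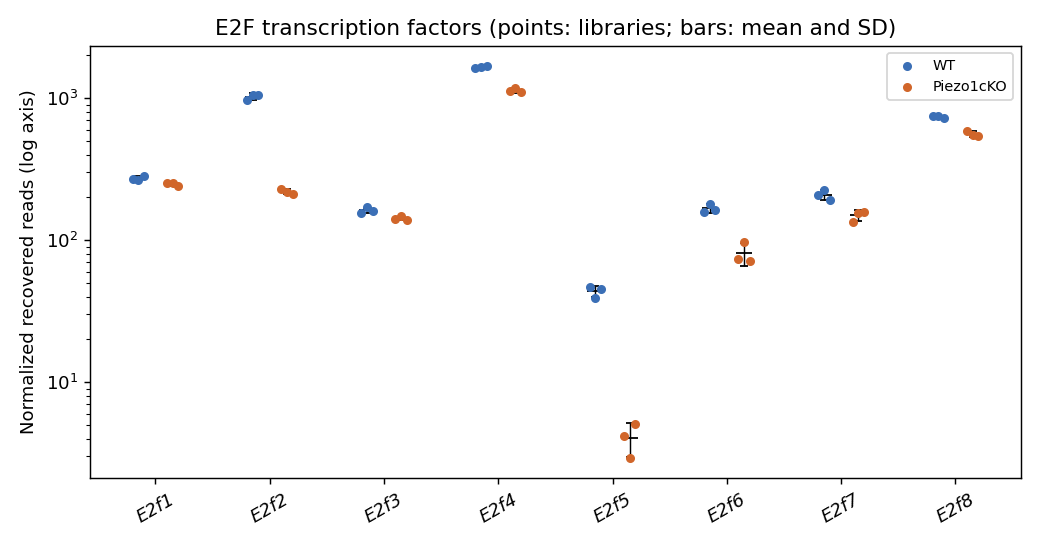
Normalized recovered reads of E2f1 to E2f8 (y axis, log scale); points are libraries, black bars the mean and SD of 3 libraries. In all 8 genes the Piezo1cKO libraries lie below the WT libraries, with the widest gaps for E2f5 (9.30% of WT) and E2f2 (21.4% of WT). The same holds for 33.1% of all genes tested.

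Genes with and without the E2F-type letters shown above were also set side by side. Of the 14 replication genes with the letters, 10 fell and 2 rose, with a median log2 fold change of -0.14. Of the 18 with a window and no such letters, 10 fell and 1 rose, with a median of -0.086. In shares 71.4% of the genes with the letters and 55.6% of those without were lower. Of all genes tested 31.4% were lower and 31.6% higher, and of those with at least 50 reads 35.8% and 33.7%. The difference between genes with and without the letters was not tested. Orc1 and Cdt1 were the 2 genes with the letters that rose, and E2f2, Pola1, Mcm5, Mcm6 and Cdc6 are among those that fell. In the wider list 16 of 45 genes with a window held the letters (35.6%), and in the mitosis list 1 of 24 (4.17%). The letters TTTGAA on either strand, the core of the element of late cell cycle promoters, were in 17 of the 24 mitosis genes (70.8%). They were in 7 of the 32 replication genes (21.9%). Of all genes with a window 20.2% held them, and of those among the genes tested 15.1%.

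The wider list holds 58 other genes of replication, nucleotide supply, chromatin assembly and S phase control. Of these 33 fell, 10 rose and 15 were not called, with a median log2 fold change of -0.10. In shares 74.1% were called, 56.9% as lower and 17.2% as higher. Of all genes tested 63.0% were called, 31.4% as lower and 31.6% as higher. Among those with at least 50 reads 69.5% were called, 35.8% as lower and 33.7% as higher. The 5 largest changes of the list in deposited values, among genes called and not overlapping, were all lower, in Rrm2, E2f4, E2f6, Atad2 and Mtbp. On recovered reads the largest was that of E2f5 (-3.31), and Pold4, a small subunit of polymerase delta named after its values were seen, rose by 0.96 to 192.5% of WT (0.35 on the deposited scale, limma, adjusted p = 2.45e-05). Rrm2, the regulated subunit of ribonucleotide reductase, which makes deoxynucleotides, had 12072, 11281 and 11797 normalized reads in WT and 8255, 7664 and 8054 in Piezo1cKO libraries, at -0.41 (limma, adjusted p = 5.01e-11). Atad2, a bromodomain ATPase, was at 69.6% of WT and -0.37 (limma, adjusted p = 1.19e-09). Mtbp, which works in origin firing, was at 60.7% and -0.36 (limma, adjusted p = 1.91e-07).

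Other control genes of the wider list are named after their values were seen. Dbf4 and Cdc7, the subunits of the kinase that fires origins, fell by 0.27 and 0.14 (limma, adjusted p = 7.33e-06 and 0.00109). Ccne1, Ccne2 and Cdk2, which make up the cyclin E kinase of the G1 to S transition, were at 77.6%, 78.8% and 89.9% of WT (limma, adjusted p = 2.32e-05, 8.78e-06 and 0.00033). Cdc25a, the phosphatase that activates this kinase, was at 141.6% of WT and rose by 0.23 (limma, adjusted p = 0.000143).

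The mitosis list, set beside the replication genes as the next phase of the cycle, had 17 of its 30 genes lower, 5 higher and 8 not called. In shares 73.3% were called, 56.7% as lower and 16.7% as higher, against 63.0%, 31.4% and 31.6% of all genes tested. The median log2 fold change of the mitosis list, -0.10, was close to that of both replication lists. Top2a, which untangles chromosomes, fell by 0.42 (limma, adjusted p = 3.65e-10), Bub1, a checkpoint kinase, by 0.39 (limma, adjusted p = 3e-07), Kif11, a spindle motor, by 0.32 (limma, adjusted p = 2.46e-08), and Cdk1, the mitotic kinase, by 0.25 (limma, adjusted p = 2.14e-06). Pttg1, which encodes securin, rose by 0.32 (limma, adjusted p = 1.04e-07). Mki67, the common marker of cycling cells, had 802, 774 and 793 normalized reads in WT and 791, 728 and 698 in Piezo1cKO libraries. Its groups overlapped at -0.062 (limma, adjusted p = 0.137), and without Piezo1cKO replicate 1 it was at -0.093 (limma, adjusted p = 0.0283).

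**Figure D5:**
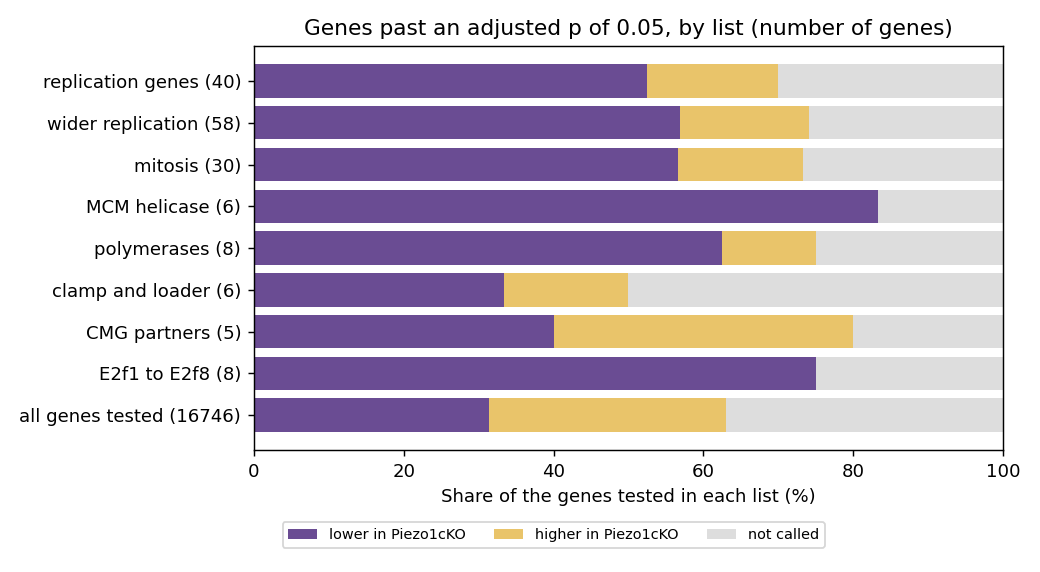
Share of the tested genes of each list called lower (violet), called higher (yellow) or not called (grey) in Piezo1cKO LSCs at an adjusted p under 0.05 (x axis, percent); the number of genes is beside each list. Lower calls make up 52.5% of the 40 replication genes and 31.4% of all genes tested, and reach 83.3% in the 6 MCM genes.

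Markers of the sorted cells and of other cell types moved between the groups as well. Kit, Cd34, Hoxa9, Meis1 and Ptprc were present in all libraries. Of these Kit, Cd34 and Ptprc rose by 0.31, 0.46 and 0.15, to 135.8%, 155.8% and 116.1% of WT, and Meis1 fell by 0.13 to 86.8% (limma, adjusted p = 8.42e-09, 8.31e-12, 9.36e-05 and 0.00278), while Hoxa9 was at 0.0028 (limma, adjusted p = 0.946). Ly6a, the gene of Sca-1, had at most 1.01 normalized reads in WT and 7.12 to 16.6 in Piezo1cKO libraries. Summed levels of maturing neutrophil genes were 2480 to 2505 normalized reads in WT and 875 to 919 in Piezo1cKO libraries (5 of 7 lower, 1 higher), and those of erythroid genes 114 to 145 and 32 to 42 (2 of 5 lower). Mast cell and basophil genes had sums of 1999 to 2107 in WT and 7662 to 7883 in Piezo1cKO libraries (4 of 5 higher). The 5 B cell genes reported here had sums of 1537 to 1597 and 2415 to 2638 (3 higher), with Ms4a1 and Pax5 at no more than 3 reads. T and NK cell genes had sums of 60 to 67 and 100 to 157 (2 of 6 higher, 1 lower), with Cd3e, Cd3g and Ncr1 at no more than 3 reads, megakaryocyte genes 209 to 260 and 267 to 303 (2 of 4 higher, 1 lower), and macrophage genes 592 to 632 and 631 to 707 (3 of 5 higher). Beside these counts, 31.6% of all genes tested were called higher and 31.4% lower. The part of these cell types in the changes of the replication genes was not tested.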

How the data were processed

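The deposited table holds log2 values, 1 column per library, and no column was left out. According to the submitters' processing notes, reads were trimmed with fastp (0.20.1), mapped to GRCm38 with HISAT2 (2.2.1), counted with featureCounts (2.0.1) and normalized with DESeq2 (1.28.1). The transform behind the log2 values the authors deposited is not given in the sources used here, and their form is that of a regularized log. Libraries were of polyA RNA by a protocol after Smart-seq2 with Tn5, without strand and without molecular identifiers. Errors and intervals come from the spread between the libraries.

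A count test had been kept in reserve and was not used, since the table holds no counts. Genes with a mean value of at least 1 (16746) were fitted with limma (3.58.1, R 4.3.3), lmFit and eBayes with a trend, with Benjamini-Hochberg adjustment over all of them. The regularized log was undone by finding the size factors and the shrinkage under which values became whole, for genes with means of 1 to 1000 reads. With the shrinkage set 10% off, 22.7% of values in place of 94.9% lay within 0.1 of a whole number. Tested on simulated reads of 5743 genes, all reads came back exactly (100%). For 17352 genes that had 10 or more reads over the 6 libraries, limma-voom was run on the recovered reads. On simulated data of this comparison with 200 changed genes, limma found 199 of them among 16746 genes with 4 false calls, and limma-voom found 167 among 17352 genes. In the measured data 63.0% of the 16746 genes were called, and a share that large was not tested. Detection of differences as small as most of those reported here was not tested separately. The lowest two-sided p that an exact permutation test can reach with 3 libraries a group is 0.1.

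The 40 genes and the other lists were chosen with earlier results of these data known. Values of every library are given for the 12 genes with the largest changes and for at least 1 gene of each role. Of each other list, the 5 genes with the largest changes among those called and not overlapping are named, with Mki67 and Top2a. The labels give no batch. Of the B cell markers, 1 gene is not reported here. Exon lengths, overlaps and gene positions are from GENCODE M21 (GRCm38), where all 40 genes were found by symbol. Exons of 15 of the 40 share bases with another gene, and since the counting is not stated to use strand, reads of such partners cannot be told apart. Alternatives were other filters, scalings and variance models, recovered reads with size factors or library totals, a replicate block and each library left out. Python (3.11.15) with numpy (2.4.6), scipy (1.17.1), pandas (2.3.3) and matplotlib (3.10.9) was used for the rest.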

Additional observations from a re-analysis of the deposited data

How the results depend on the processing

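Of the 28 genes called, 23 kept direction and call in all 14 alternative settings. Cdc45, Cdt1, Orc6, Prim2 and Rfc1 lost the call in 1, 6, 9, 7 and 2 settings in turn, with the direction unchanged. Mcm4, Rfc3 and E2f1 gained it in 1 setting each. Directions turned only in genes that were not called, all by less than their error. These were Gins2 under quantile normalization (0.0008), Rpa1 with each library shifted to the same median (0.0009), Rfc5 without WT replicate 1 (-0.0011), Pole2 without WT replicate 2 (-0.0158), Pole without WT replicate 3, Piezo1cKO replicate 1 or 2 (-0.0088, -0.0014 and -0.0020), and Rfc4 without WT replicate 2 or 3 or Piezo1cKO replicate 1 (-0.0072, -0.0029 and -0.0212). With 1 library left out, the values of Rfc5, Pole2, Pole and Rfc4 reached up to 0.0322, 0.0652, 0.0365 and 0.0262. Across settings 18 to 22 of the 40 genes were lower, 5 to 7 higher and 1 past both DEG thresholds. The median over the 40 genes was -0.0637 with libraries shifted to the same median, -0.0614 under quantile normalization, -0.1379 on recovered reads and -0.1196 on recovered reads with library totals, and the cause was not tested. The shift to the same median moved the median of all genes to 0.023 and the split of all genes from 5298 higher and 5258 lower to 6450 and 4214. All genes past both DEG thresholds numbered 137 on the deposited values, 4322 on recovered reads and 4333 with library totals, where the genes tested and the model differ as well. Counting only genes whose mean was 50 reads or more, they numbered 137 and 904 on the 2 scales. Count tests were not run because the table holds no counts.

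With the replicate number as a block, 22 of the 40 genes were lower and 7 higher, Rfc3 joined the lower genes (-0.071, limma adjusted p = 0.0482), the median stayed at -0.086, and 137 genes passed both thresholds. Correlations of same-numbered libraries were 0.195, 0.161 and 0.070, not all over 0.1, and every library correlated best with its own number, a hint from the data and not from the design. At 108 to 9180 mean reads per gene and a median coefficient of variation of 3.58% in WT and 3.04% in Piezo1cKO libraries, the smallest log2 fold change called was 0.069 (Prim2).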
